A study of Homo sapiens with 24 samples.

Results

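The genes described here are 9 genes of the epithelial-mesenchymal transition (EMT), taken from the 20098 protein-coding genes annotated on chromosomes 1 to 22 and X. They are the transcription factors SNAI1, SNAI2, TWIST1, ZEB1 and ZEB2, the epithelial cadherin gene CDH1, and the mesenchymal genes CDH2, VIM and FN1. The genes were chosen by name for their known roles and not by a measured value, although earlier results of these data were known. At each gene, chromatin immunoprecipitation sequencing (ChIP-seq) peaks of the calcium-binding proteins S100A8 and S100A9 were counted where the summit lay in the gene body or within 50 kb of it, and the MACS2 q-value was 1e-07 or below. A peak was placed at a promoter when its summit fell between 1500 bp before and 250 bp after a transcription start site.

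The cells were MCF-10A, a nontransformed human mammary epithelial line, carrying an inducible oncogene, ER-Src, in which v-Src is joined to the hormone-binding part of the estrogen receptor. They were given 1 µM 4-hydroxytamoxifen (TAM), which switches on ER-Src, for 24 hours, or ethanol (EtOH), the solvent, for 24 hours. All cells carried ER-Src, and each of the 2 derived lines also stably expressed S100A8 or S100A9 with a Flag tag, so the ChIP-seq signal is that of the introduced tagged protein, and cells without a tagged protein were not analysed here. There were 2 libraries of S100A8 in EtOH, 3 of S100A8 in TAM, 3 of S100A9 in EtOH and 3 of S100A9 in TAM, labelled as biological replicates. The 5 EtOH libraries held between 1853 and 4609 peaks at this q-value and the 6 TAM libraries between 21518 and 40735, so most genes have more peaks in TAM for either protein. Read depth is unknown, since the files give peaks and not reads, and a difference in depth cannot be told apart from a difference in binding.

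During EMT, epithelial cells lose cell-to-cell junctions and polarity and gain motility. SNAI1, SNAI2, ZEB1 and ZEB2 are zinc-finger repressors, and TWIST1 is a basic helix-loop-helix factor. The SNAIL and ZEB proteins bind E-boxes, DNA motifs such as CACCTG, and repress CDH1, which encodes the adhesion protein E-cadherin. N-cadherin (CDH2), the intermediate filament protein vimentin (VIM) and the matrix protein fibronectin (FN1) mark the mesenchymal state, although basal-type mammary lines in culture can express some of them while remaining epithelial.

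Overlapping peaks were merged into sites, fold enrichments of a site are those of the peak with the lowest q-value in each library, and the summits that the results below turn on are shown as 101 bases of GRCh37, plus strand, 5′ to 3′, centered on the summit of the site. These 6 sites include those called in most TAM libraries at SNAI1, CDH1, ZEB1 and ZEB2. The others are the upstream CDH1 site with the highest fold enrichment and the CDH2 promoter site. The latter was the one site of the set called in EtOH and in no TAM library. Capitals mark 4 of the motifs searched, which were AP-1 (TGAGTCA), the E-box (CACCTG), STAT (TTCNNNGAA) and ETS (CGGAAG), on either strand, so CAGGTG is an E-box read from the other strand.
SNAI1, 37.0 kb downstream of the start site, chr20:48636459-48636559: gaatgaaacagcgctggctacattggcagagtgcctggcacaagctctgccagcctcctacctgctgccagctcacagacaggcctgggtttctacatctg
CDH1, intron 2, chr16:68790255-68790355: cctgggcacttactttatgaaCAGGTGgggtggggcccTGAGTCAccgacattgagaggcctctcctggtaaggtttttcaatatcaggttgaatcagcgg
CDH1, 32.8 kb upstream, chr16:68738361-68738461: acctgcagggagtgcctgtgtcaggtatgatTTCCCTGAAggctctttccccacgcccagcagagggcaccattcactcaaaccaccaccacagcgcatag
ZEB1 promoter, chr10:31607939-31608039: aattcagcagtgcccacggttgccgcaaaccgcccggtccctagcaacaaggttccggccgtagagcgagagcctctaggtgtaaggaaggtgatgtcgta
ZEB2, 187.4 kb downstream, chr2:145090203-145090303: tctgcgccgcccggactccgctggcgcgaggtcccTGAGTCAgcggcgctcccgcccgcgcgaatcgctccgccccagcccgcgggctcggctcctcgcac
CDH2 promoter, chr18:25757362-25757462: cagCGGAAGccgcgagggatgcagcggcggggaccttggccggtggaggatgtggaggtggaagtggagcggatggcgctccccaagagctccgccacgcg

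Over the 9 genes together, S100A8 had 3 and 1 peaks in the EtOH libraries and 18, 16 and 21 in the TAM libraries. S100A9 had 3, 1 and 2 peaks in EtOH and 25, 20 and 36 in TAM. The treatments did not overlap for either protein, and neither did the total numbers of peaks in the libraries. As a share of each library's peaks, the EtOH libraries had 5.44 ± 2.37 peaks at these genes per 10000 peaks (SD, n = 5) and the TAM libraries 8.25 ± 1.56 (SD, n = 6), with ranges from 2.17 to 8.34 and from 6.13 to 9.81 that did overlap.

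**Figure D1:**
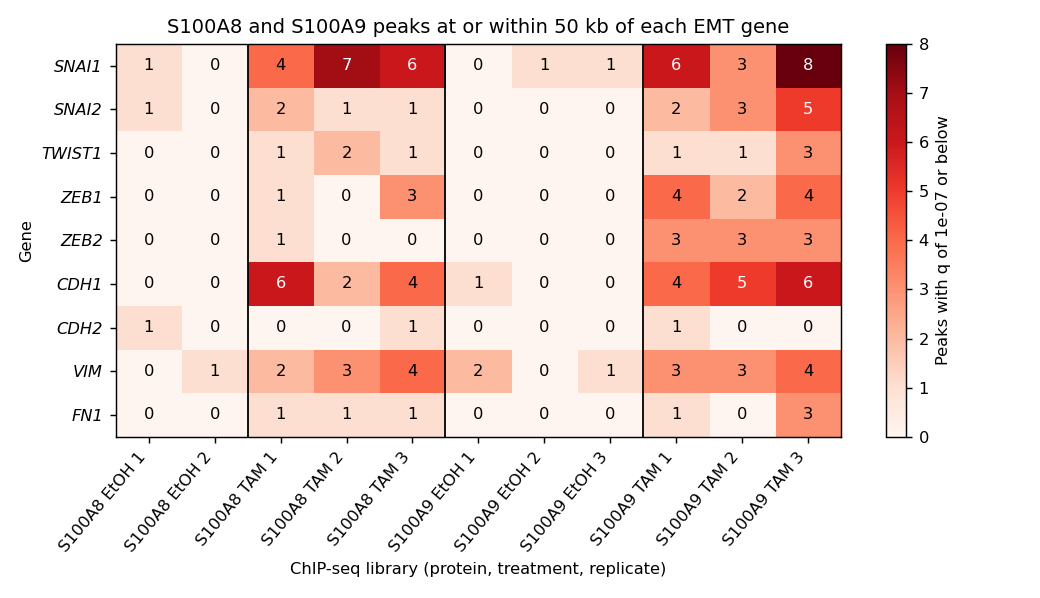
Number of S100A8 or S100A9 peaks with a q-value of 1e-07 or below in the body or within 50 kb of each gene (rows) in each ChIP-seq library (columns), written in each cell and shaded from 0 to 8. EtOH columns hold 0 to 2 peaks per gene, SNAI1 has 3 to 8 peaks in every TAM library, and CDH2 stays at 0 or 1 throughout.

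SNAI1, the factor that represses CDH1 early in many forms of EMT, had the highest peak density of the 9 genes in TAM, whereas in EtOH VIM (0.73 peaks per 100 kb) lay above it (0.57). S100A8 had 1 and 0 peaks there in EtOH and 4, 7 and 6 in TAM, and S100A9 had 0, 1 and 1 in EtOH and 6, 3 and 8 in TAM. Every TAM library lay above every EtOH library, with means of 5.67 ± 1.86 (SD, n = 6) and 0.60 ± 0.55 (SD, n = 5). The share of all genes that separate in this way was not counted. By a different measure, the permutation test below, 67.6% of the genes tested were called higher in TAM. Per 100 kb of gene and flanks, SNAI1 (ENSG00000124216, chr20:48599517-48605423 in hg19) had 5.35 peaks in TAM on average, and 91.2% of all genes had fewer. The SNAI1 sites were mostly outside the gene. Of 12 sites, 7 were called in at least 2 libraries, 1 of those 46.7 kb upstream, 1 at 3.79 kb upstream and 5 from 20.4 to 51.1 kb downstream of the start site.

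The downstream SNAI1 site whose sequence is given first above (chr20:48636376-48637067, between genes) was called in 6 of 6 TAM libraries and in 0 of 5 EtOH libraries. Its fold enrichment over input was 10.95, 12.5 and 7.19 in the S100A8 TAM libraries and 13.97, 5.66 and 10.5 in the S100A9 TAM libraries. In EtOH the deposited lists held a peak here in 1 library alone, S100A9 replicate 3, with 6.85-fold enrichment and a q-value above 1e-07. A neighboring site 20.4 kb downstream was called in the 3 S100A8 TAM libraries, at 5.94, 10.5 and 7.86-fold, and none of the S100A9 libraries had a deposited peak there. Sites 45.0 and 47.1 kb downstream were each called in 1 S100A8 TAM library and all 3 S100A9 TAM libraries. None of these differences between the proteins passed a test, as given below. At these sites, which had no call in EtOH, the smallest unadjusted p that the permutation test can give is 0.10. They could therefore not pass whatever the calls in TAM.

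The only SNAI1 site shared with several EtOH libraries was 46.7 kb upstream, called in 5 TAM and 3 EtOH libraries, and its summit lies 146 bp before the start site of a neighboring gene, RNF114. There the EtOH calls had 8.61-fold enrichment for S100A8 replicate 1 and 7.58 and 11.5-fold for S100A9 replicates 2 and 3, within the range of the TAM calls (8.37 to 14.3-fold) in 2 of the 3. At the SNAI1 promoter itself, a peak passed the q-value in 1 of 11 libraries, S100A9 in TAM, replicate 1, with 8.46-fold enrichment. Weaker promoter peaks, with q-values between 1e-07 and 0.05, were deposited for 2 other TAM libraries and 1 EtOH library.

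**Figure D2:**
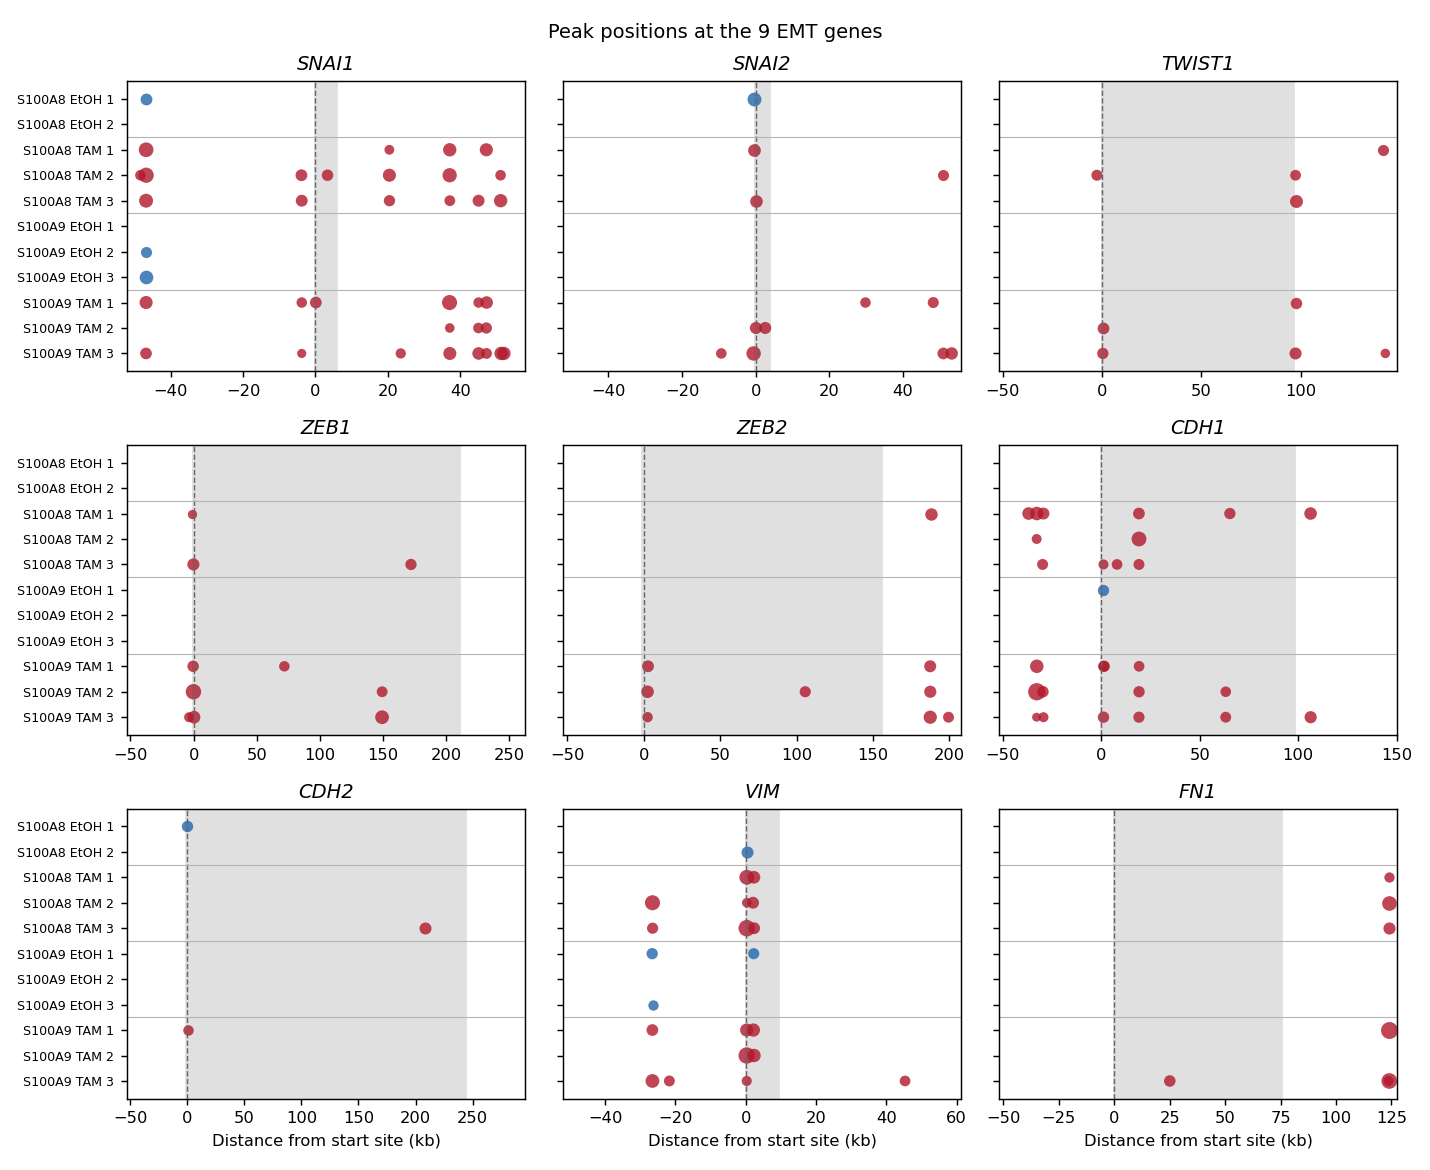
Summits of sites with a q-value of 1e-07 or below at each gene by distance from the canonical transcription start site in kb, 1 row per library, 1 point per site. Blue points are EtOH libraries, red points are TAM libraries, point area is proportional to fold enrichment over input, gray marks the annotated gene and the dashed line its start site, with downstream to the right. SNAI1 and CDH1 have repeated columns of red points away from the start site, whereas the repeated column of FN1 and the longer of those of ZEB2 lie past the end of the gene.

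ZEB1, which represses epithelial genes and is kept low in epithelial cells by the miR-200 microRNAs, had no peak in any of the 5 EtOH libraries. S100A8 had 1, 0 and 3 peaks in TAM and S100A9 had 4, 2 and 4. Of these 14 peaks, 9 were at a ZEB1 promoter. The promoter site (chr10:31607110-31608715, 1606 bp wide) was called in 5 of 6 TAM libraries, and its summit lies 65 bp from a ZEB1 start site and 2 bp from a start site of the antisense transcript ZEB1-AS1. Fold enrichment was 5.30 and 9.09 in S100A8 TAM replicates 1 and 3 and 8.12, 14.7 and 9.94 in the S100A9 TAM libraries. The deposited lists also held weaker peaks here in 4 EtOH libraries, the strongest in each between 5.44 and 6.98-fold, so the site was present below the q-value in EtOH. Over all ZEB1 start sites, 5 of 5 EtOH libraries had a deposited promoter peak, at up to 7.35-fold.

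ZEB2, the paralog of ZEB1, had 1 peak in the S100A8 TAM libraries (1, 0 and 0), 3 in each S100A9 TAM library and none in EtOH. The ZEB2 promoter, with 31 annotated start sites, had a called peak in each of the 3 S100A9 TAM libraries and in none of the other libraries. The promoter site called in 2 libraries lies 2.41 kb downstream of the canonical start, 9 bp from another ZEB2 start and 269 bp before one of ZEB2-AS1, with 9.74 and 6.63-fold enrichment in S100A9 TAM replicates 2 and 3. S100A8 TAM replicates 1 and 2 had deposited promoter peaks with q-values of 7.4e-07 and 8.5e-06, above the limit of 1e-07. S100A9 EtOH replicates 2 and 3 also had deposited promoter peaks, at 7.42 and 5.22-fold with q-values of 7.2e-07 and 5.2e-04. The former lay at the promoter site 2.41 kb downstream of the canonical start, so the ZEB2 promoter was not free of peaks in EtOH. The site called most often in the ZEB2 window (chr2:145089393-145090424; 4 TAM libraries, 8.88 to 10.8-fold at the strongest peak of each) lies past the end of ZEB2, 152 bp before a start site of its neighbor GTDC1.

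SNAI2, known for its role in mammary basal and stem cells, had S100A8 peaks of 1 and 0 in EtOH and 2, 1 and 1 in TAM, and S100A9 peaks of 0, 0 and 0 in EtOH and 2, 3 and 5 in TAM. The groups overlapped for S100A8 alone, where EtOH replicate 1 equaled 2 of the TAM libraries. That EtOH peak was at the promoter and, at 11.8-fold, was the strongest EtOH peak at a promoter of the 9 genes. The promoter site (chr8:49833767-49834710) was called in 4 TAM libraries, at 9.93, 9.77, 9.08 and 12.8-fold. When every deposited peak is taken, the SNAI2 promoter had one in 4 of 5 EtOH libraries and 6 of 6 TAM libraries.

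TWIST1, a factor of mesoderm development, had no peak in EtOH, 1, 2 and 1 peaks of S100A8 in TAM and 1, 1 and 3 of S100A9 in TAM. These are few peaks for a window of 197 kb, which is wide because GENCODE includes a TWIST1 transcript of 96.6 kb. The site called most often lies 97.4 kb downstream of the start (4 TAM libraries, 7.13 to 10.3-fold), just past the end of that long transcript. With the canonical transcript and 50 kb alone, the TWIST1 difference between treatments was 0.50 on the log2 scale with an adjusted p of 0.264. A second site, called in S100A9 TAM replicates 2 and 3 at 8.51 and 7.89-fold, has its summit in coding exon 1, 326 bp from the start site and outside the promoter interval. At the promoter proper no library had a called peak, and the deposited lists held weaker ones in all 3 S100A9 EtOH libraries, between 5.05 and 7.05-fold, and in 0 of 6 TAM libraries. In each of these EtOH libraries such a peak belonged to the same merged site as the exon 1 calls. That site also held a 6.02-fold peak of S100A8 EtOH replicate 2 with a q-value above 1e-07, so it was not confined to TAM.

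CDH1, whose loss is the hallmark of EMT, had 1 peak over the 5 EtOH libraries and 2 to 6 in each TAM library. S100A8 had 0 and 0 in EtOH and 6, 2 and 4 in TAM, and S100A9 had 1, 0 and 0 in EtOH and 4, 5 and 6 in TAM, without overlap between the treatments. As at SNAI1, this stands beside 67.6% of the genes tested being called higher in TAM. None of these peaks was at a CDH1 promoter. The lists held weaker promoter peaks in 1 EtOH library and 4 TAM libraries, the lowest q-value being 2.0e-07 in S100A9 TAM replicate 3. The most regular site was in intron 2, the long intron of the gene, where the site 19.1 kb from the start (chr16:68789906-68790592) was called in 6 of 6 TAM libraries and held no deposited peak in any EtOH library. Its fold enrichment was 8.49, 13.5 and 7.41 for S100A8 and 7.03, 7.94 and 7.75 for S100A9.

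The CDH1 window reaches into CDH3, the gene of P-cadherin, which lies just upstream, and 2 of the repeated CDH1 sites are inside CDH3. The site 32.8 kb upstream of CDH1 was called in 5 TAM libraries, with 18.5-fold enrichment in S100A9 TAM replicate 2 and 4.90-fold in replicate 3, and the site 29.4 kb upstream was called in 4 TAM libraries. The single EtOH call (S100A9, replicate 1, 7.89-fold) was at a site in coding exon 2 that was also called in 3 TAM libraries. A last pair of sites was called in 2 TAM libraries each, one 63.2 kb downstream of the start site in intron 2 and one 106.2 kb downstream at a start site of the next gene, TANGO6.

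VIM was the gene whose promoter was occupied most regularly. S100A8 had 0 and 1 peaks in the VIM window in EtOH and 2, 3 and 4 in TAM, and S100A9 had 2, 0 and 1 in EtOH and 3, 3 and 4 in TAM. The treatments overlapped when the proteins were pooled, since the highest EtOH library equaled the lowest TAM library at 2 peaks, but not within either protein. The share of all genes that separate within either protein was not counted. The promoter site (chr10:17270211-17271105) was called in 6 of 6 TAM libraries and in S100A8 EtOH replicate 2. Fold enrichment in TAM was 13.5, 5.71 and 16.8 for S100A8 and 10.6, 16.5 and 6.33 for S100A9, against 8.94 in that EtOH library. The other 4 EtOH libraries held weaker deposited peaks at 3.03 to 7.05-fold, so every library had some signal at this promoter. A second site in intron 2 of VIM was called in 5 TAM libraries and 1 EtOH library, and its summit lies 409 bp before a start of the antisense transcript VIM-AS1. The third site, called in 4 TAM and 2 EtOH libraries, lies 26.5 kb upstream of VIM at the start of the neighboring gene TRDMT1.

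CDH2 was nearly free of S100A8 and S100A9 peaks. Its window of 345 kb is the widest of the 9, and it held 1 peak over the 5 EtOH libraries and 2 over the 6 TAM libraries, at 3 different sites. The mean density in TAM was 0.097 peaks per 100 kb, and 7.49% of all genes had a lower one. The EtOH peak, in S100A8 replicate 1 at 7.94-fold, was at the CDH2 promoter, 318 bp upstream of a start site. Of the 55 sites at the 9 genes, it was the 1 with no call in a TAM library. Weaker promoter peaks were deposited in 4 TAM libraries, so the promoter was not peak-free after TAM.

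FN1 had no peak in EtOH, 1 in each S100A8 TAM library, and 1, 0 and 3 in the S100A9 TAM libraries. In 5 of those libraries the peak was at a site (chr2:216176481-216176960) that lies past the 3′ end of FN1, 40 bp from a start site of ATIC, a gene of purine synthesis. This site reached 17.7-fold in S100A9 TAM replicate 1 and 15.1-fold in replicate 3. Within FN1 itself there was 1 peak, in intron 13, in S100A9 TAM replicate 3. The FN1 promoter had no called peak in any library and 1 weak deposited peak, in an EtOH library.

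**Figure D3:**
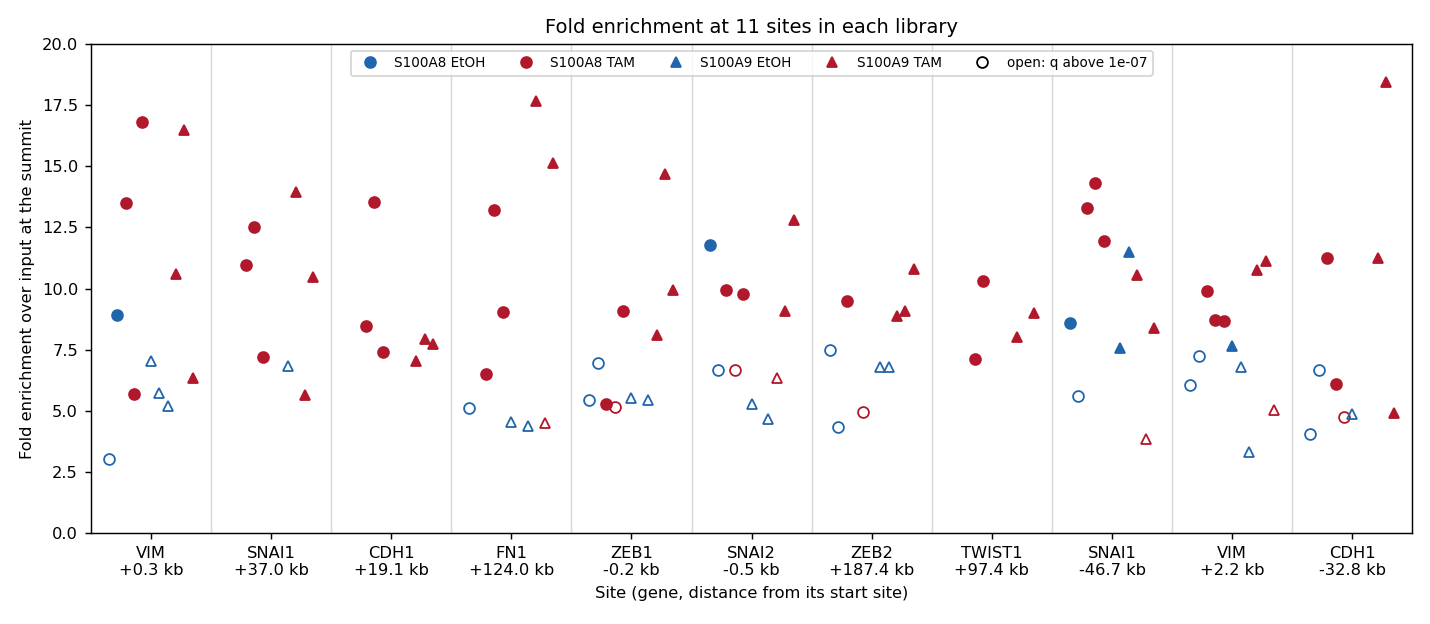
Fold enrichment over input at the summit (linear axis from 0) of 11 sites in each library (the site called in most TAM libraries at each gene with a repeated site, and any other called in at least 5), with circles for S100A8, triangles for S100A9, blue for EtOH and red for TAM. Filled symbols have a q-value of 1e-07 or below, open symbols are deposited peaks above it, and a library with no deposited peak has no symbol. The CDH1 site at 19.1 kb has 6 filled red symbols and no blue one, and the VIM promoter site has a symbol for all 11 libraries.

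The first comparison asks whether the number of peaks at each gene differed between transformed (TAM) and nontransformed (EtOH) cells. The log2(peaks + 1) difference of TAM minus EtOH was 2.24 at CDH1, 2.10 at SNAI1, 1.54 at ZEB1, 1.38 at SNAI2, 1.36 at VIM, 1.26 at TWIST1, 1.17 at ZEB2, 1.00 at FN1 and 0.083 at CDH2. In an exact two-sided permutation test over the libraries within each protein, with Benjamini-Hochberg adjustment over 18126 genes, 6 of the 9 genes were called higher in TAM at an adjusted p of 0.05. The adjusted p was 0.0219 for CDH1, SNAI1, TWIST1 and VIM, whose unadjusted p of 0.01 was the smallest the test can give, and 0.0443 for SNAI2 and ZEB1. In the same permutation test FN1 (adjusted p = 0.0552), ZEB2 (0.0778) and CDH2 (1) did not pass. In the background, 67.6% of the genes tested were called higher in TAM and 0% lower, so 6 of 9 is close to the share of all genes. When each of the 11 libraries was left out in turn, CDH1, SNAI1, TWIST1 and VIM were called all 11 times, with adjusted p values from 0.0314 to 0.0497. SNAI2 was called only without S100A8 EtOH replicate 1 and ZEB1 only without S100A8 TAM replicate 2.

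Since the TAM lists are longer, the comparison was repeated on lists scaled to one length. On the scale of peaks per 10000 peaks of the library, none of the 9 genes was called, nor was any of the 18126 genes tested (0%). With these libraries no gene can pass unless at least 20% of the genes tested pass with it, so the lack of calls does not show that the shares were equal. At an unadjusted p under 0.05 there were 3979 of the 18126 genes tested and 3 of the 9 genes. The 3 were TWIST1 (0.53 more peaks per 10000 in TAM), ZEB1 (0.85 more) and FN1 (0.39 more), which had no EtOH peaks at all. Without EtOH peaks the difference can only be positive. A single peak counts for at least 2.17 per 10000 in every EtOH list, more than any of these 3 differences. These p values therefore cannot tell a lower share in EtOH from lists too short to hold a peak. VIM, with a difference of -0.63 per 10000, and CDH2, with -0.43, had the opposite sign on this scale. When the lists were cut to the 1853 strongest peaks of each library, 3 of the 9 genes still had a peak in at least 2 libraries, and their log2 differences were 0.50 at CDH1, 0.25 at VIM and -0.15 at SNAI1, none called.

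Promoters were compared with the rest of the genome in the same lists. A promoter peak in at least 2 TAM libraries was found at 4 of the 9 genes (SNAI2, ZEB1, ZEB2 and VIM), against 52.2% of all 20098 genes. A promoter peak in all 6 TAM libraries was found at 1 gene, VIM, against 13.7%. A promoter peak in at least 1 EtOH library was found at 3 genes (SNAI2, CDH2 and VIM), against 28.6%. None of the 9 had one in at least 2 EtOH libraries, against 2622 of all 20098 genes. With 9 genes, finding none cannot be told apart from this share. TWIST1, CDH1 and FN1 had no promoter peak at this q-value in any library.

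**Figure D4:**
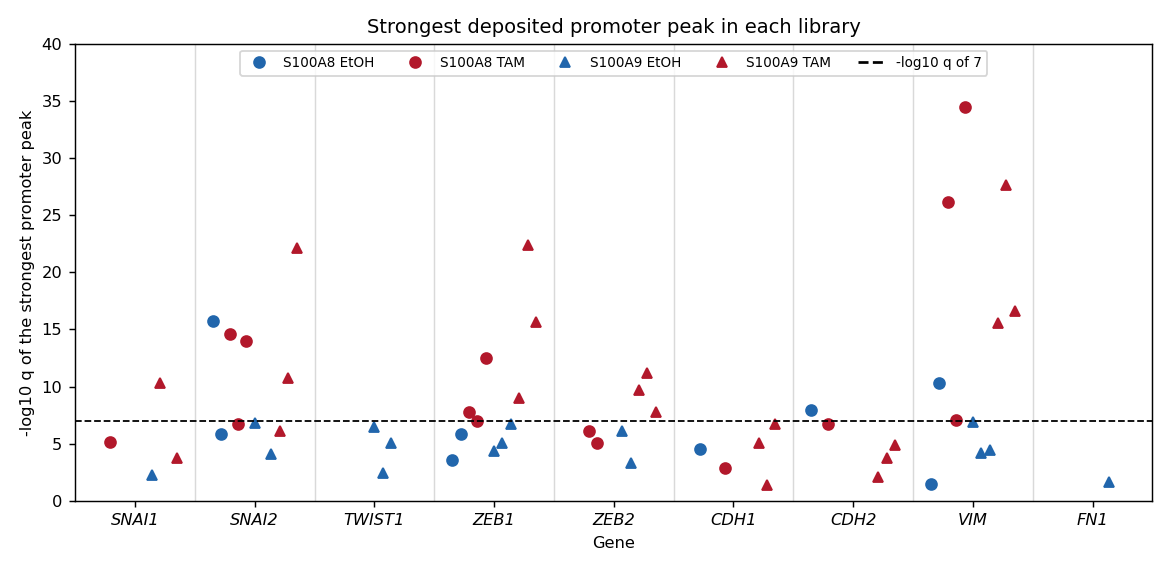
The -log10 q-value of the strongest deposited promoter peak of each gene in each library (linear axis), with circles for S100A8, triangles for S100A9, blue for EtOH and red for TAM, and a dashed line at 7. VIM, ZEB1 and SNAI2 have most TAM symbols above the line, TWIST1 has 3 blue triangles below it and no red symbol, and all symbols of CDH1 and FN1 lie below it.

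By density, the genes divided around the genome-wide median of 1.67 peaks per 100 kb in TAM. SNAI1 (5.35), VIM (2.90), CDH1 (2.27) and SNAI2 (2.24) lay above it, and TWIST1 (0.76), ZEB1 (0.75), FN1 (0.66), ZEB2 (0.65) and CDH2 (0.097) below it. The median of the 9 genes was 0.76 in TAM and 0.058 in EtOH, where the median of all genes was 0.19. Only the steps from SNAI1 down to VIM and from SNAI2 down to TWIST1 were larger than 1 SD over the TAM libraries of both genes, and the other neighbors in this order differed by less than that spread.

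**Figure D5:**
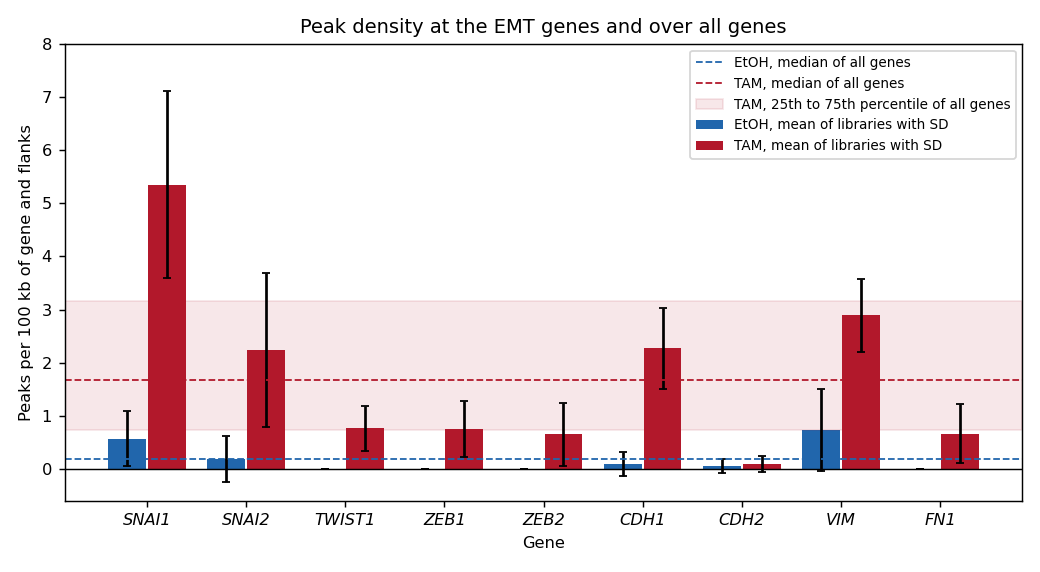
Mean number of peaks per 100 kb of gene and flanks in the EtOH libraries (blue, n = 5) and TAM libraries (red, n = 6) for each gene, with bars from 0 and error lines of 1 SD over libraries. Dashed lines are the medians of all 20098 genes and the pink band spans the 25th to 75th percentile of all genes in TAM. SNAI1 stands above the band at 5.35, and CDH2, at 0.097, is far below it.

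A stricter view counts confident sites, those called in at least 2 replicates of one protein and treatment. The 9 genes had 0 confident sites of S100A8 in EtOH and 15 in TAM, and 2 of S100A9 in EtOH and 22 in TAM. In TAM, SNAI1 had 5 for either protein, CDH1 had 3 of S100A8 and 5 of S100A9, VIM had 3 of either, ZEB1 had 1 and 3, TWIST1 had 1 and 2, SNAI2 and FN1 had 1 of either, ZEB2 had 0 and 2, and CDH2 had none. The S100A9 sites in EtOH were the RNF114 promoter in the SNAI1 window and the TRDMT1 promoter in the VIM window, so no EMT gene had a confident site of its own in EtOH. At least 1 confident site was found at 0, 7, 2 and 8 of the 9 genes for S100A8 in EtOH, S100A8 in TAM, S100A9 in EtOH and S100A9 in TAM. The shares of all genes were 14.4%, 75.7%, 16.2% and 81.9%, in the same order, and the counts at the 9 genes lie near them. Some calls sat close to the limit of 7 on the -log10 q scale, such as the SNAI1 site 45.0 kb downstream in S100A9 TAM replicate 2 just inside it (7.02) and the VIM intron 2 site in S100A9 TAM replicate 3 just outside it (6.90).

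Of the 55 sites at the 9 genes, 25 were called in at least 2 libraries. All 25 had a higher call rate in TAM than in EtOH, as had 95.9% of the 38593 such sites in the genome. In the exact permutation test of each site, 0 of the 38593 sites passed an adjusted p of 0.05 (0%). An unadjusted p under 0.05 was found at 5460 sites (14.1%), 6 of them at these genes. For any site to pass, at least 20% of the sites tested would have to reach the smallest p of 0.01, and 3.68% did. The lack of calls therefore does not show that call rates were equal. Sites called in all 6 TAM libraries were 3 of 25, at SNAI1, CDH1 and VIM, against 11.2% of all sites. Sites with a call in at least 1 EtOH library made up 28.7% of all sites, and 6 of the 25 at these genes, namely those at RNF114, the SNAI2 promoter, CDH1 exon 2, TRDMT1, the VIM promoter and VIM intron 2.

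The second comparison asks whether S100A8 and S100A9 differed. By number of peaks per gene, the S100A9 minus S100A8 difference on the log2 scale was largest at ZEB2 (0.83, unadjusted p = 0.10 in the exact permutation test) and ZEB1 (0.54, p = 0.20), and lowest at CDH2 (-0.25, p = 0.64). None of the 9 genes and 0% of the 18126 genes tested passed, with 147 genes at an unadjusted p under 0.05 and none of the 9 among them. No difference between the proteins in the change with TAM passed either, with 0% called, 414 genes at an unadjusted p under 0.05 and none of the 9 among those. The same limit of 20% of the genes tested holds here, so these tests do not show that the proteins bind alike. At a gene or site with no called EtOH peak, such as ZEB1 and ZEB2, the smallest p the permutation test can give is 0.10. Site by site, 0% of the 38593 sites passed and 37 had an unadjusted p under 0.05, none at these genes. Of the 25 repeated sites, 20 were called in TAM by both proteins, 1 by S100A8 alone and 4 by S100A9 alone, against 79.9%, 5.51% and 14.4% of all sites. The S100A8 site is the one 20.4 kb downstream of SNAI1, and the S100A9 sites are at TWIST1 exon 1, the ZEB2 promoter, ZEB1 intron 2 and CDH1 intron 2 at 63.2 kb. S100A9 TAM replicate 3 has the longest list, with 40735 peaks, and it called all 4 of these sites, each together with S100A9 TAM replicate 2.

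Not every site lay nearest to the gene whose window held it. The nearest protein-coding start site belonged to the EMT gene itself for 41 of the 55 sites and for 17 of the 25 repeated sites, and 5 of the 25 were at the promoter of another gene (RNF114, GTDC1, TANGO6, TRDMT1 and ATIC). FN1 had no repeated site nearest its own start. Of the 25 repeated sites, 4 were at a promoter of their own EMT gene.

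Sequence motifs were counted within 100 bp of the summit on either strand. Among the 25 repeated sites, 6 had the AP-1 motif TGAGTCA, against 26.0% of all 38593 sites, and 7 had the E-box CACCTG, against 22.6%. The STAT motif TTCNNNGAA was in 3 (5.62% of all sites), the KLF/SP1 motif CCCCGCCC in 4 (9.67%), the TEAD motif GGAATG in 2 (13.6%), the C/EBP motif (TTACNNAA or TTGCNNAA) in 2 (17.1%), the ETS motif CGGAAG in 1 (12.1%) and the CREB motif TGACGTCA in 0 (1.04%). AP-1 is the FOS and JUN dimer and STAT3 acts downstream of interleukin-6. The CDH1 intron 2 site, printed above, carries AP-1 and an E-box within 101 bases, and AP-1 is also in the printed ZEB2 window sequence. The VIM promoter site has an AP-1 motif as well, and the SNAI1 site called in all 6 TAM libraries has none of the motifs searched.

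Other genes of the EMT program, from lists chosen with earlier results known, were counted in the same way. Of 12 other EMT transcription factors, 11 had enough peaks to be tested and 6 were called higher in TAM, with a median log2 difference of 1.36, and 9 of 12 had a confident site in TAM. The densest in TAM were FOXC2 (4.54 peaks per 100 kb), FOXQ1 (3.90) and SNAI3 (2.45), and GSC and SOX9 were among those with no confident site. Of 20 other epithelial genes, 19 were called higher in TAM, the exception being OVOL2, with a median of 1.79, and all 20 had a confident site in TAM. The densest were the junction genes CLDN7 (10.4), F11R (5.68) and JUP (4.91). Of 16 other mesenchymal genes, 15 were tested and 10 were called higher, with a median of 1.56, and 14 had a confident site in TAM, CDH11 and POSTN having none. S100A4 (14.2) and ITGA5 (7.26) were among the densest. None of the 48 genes was called lower. The background for the genes called is again 67.6% of the genes tested, and that for a confident site in TAM, counted here for a site of either protein, is 75.7% of all genes for S100A8 alone and 81.9% for S100A9 alone.

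Markers of cell types were counted too, although peak lists hold no expression and so do not check the cell type. A promoter peak in at least 2 TAM libraries was found at 6 of 7 basal mammary markers, 3 of 5 luminal markers, 1 of 6 fibroblast markers, 1 of 5 leukocyte markers and 0 of 2 endothelial markers, against 52.2% of all genes. A confident site in TAM was found at 7 of 7 basal, 4 of 5 luminal, 3 of 6 fibroblast, 5 of 5 leukocyte and 2 of 2 endothelial markers, so this measure does not order the lists in the same way.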

How the data were processed

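ChIP-seq was performed with a Flag antibody after dual cross-linking, in 11 libraries with peak lists. The authors used Bowtie2 for alignment to hg19 (unique alignments only) and MACS2 for peak calling, library by library with the matching input as control and without pooling replicates. Tool versions are not given in the sources used here. The deposited lists reach a q-value of 0.05 and give, per peak, the fold enrichment over input at the summit (a ratio), the -log10 p-value and -log10 q-value, and the summit position. They hold no read counts, so depth is unknown and no counting interval is given.

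Peaks with a q-value of 1e-07 or below on chromosomes 1 to 22 and X were assigned to genes by summit, using GENCODE version 44 lifted to GRCh37 (protein-coding transcripts). Overlapping peaks (at least 1 bp) were merged into sites. Genes and sites with a peak in at least 2 libraries were tested, 18126 genes and 38593 sites, on log2(peaks + 1), on peaks per 10000 peaks of the library, or on the share of libraries with a call. The test was an exact two-sided permutation of libraries (200 arrangements, stratified by protein or by treatment; smallest p 0.01), with Benjamini-Hochberg adjustment over all genes or sites tested. In data simulated with 12084 of 18126 genes changed, 94.9% of the changed and 1.57% of the unchanged genes were called. With 200 genes changed, 0% were called. This outcome was fixed in advance, since no gene can pass unless at least 20% of the genes tested pass with it. The simulation started each gene at its mean over all libraries, ignored differences in list length, and raised changed genes several-fold in TAM. Peak numbers of changed genes were thus generally higher than those observed. These shares therefore do not tell how often changes of the observed size would be called. Replicates are labelled as biological, and pairs of replicate lists shared at most 3 identical peak positions. Alternatives were the q-value limit, equal list lengths, the gene window, filters, a pseudocount of 0.5, the replicate block and leaving out each library; the canonical-transcript window was added after seeing the data. All 9 genes were named, with sites named by a rule: own-promoter sites and sites in several libraries, the leading distal site of each gene, sites in at least 2 EtOH libraries and sites with no TAM call. Sites of the text beyond this rule, and the comparison with deposited peaks above the q-value limit, were chosen after their values were seen. The genes, lists and tests were chosen with earlier results of these data known. Calculations used Python 3.11.15, numpy 2.4.6, pandas 2.3.3 and scipy 1.17.1, and figures matplotlib 3.10.9. Some genes of the other EMT lists are counted but not reported here by name.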

Additional observations from a re-analysis of the deposited data

How the results depend on the processing

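The number of the 9 genes called higher in TAM was 6, and became 2 with q-values of 1e-10 or below and 0 with equal numbers of top peaks, with the gene body only, with peaks assigned to the nearest start site, and with the replicate block. In these last settings no gene of the genome was called either. Over all genes tested, the share called higher was 67.6% in the main setting and 40.7% with q-values of 1e-10 or below. At that stricter limit 8 of the 9 genes had enough peaks to be tested. With every deposited peak, 5 of the 9 genes and 72.1% of all genes tested were called. With the block, pairing libraries of the same number, the smallest possible p is 0.0625. Same-numbered libraries did not visibly deviate together (correlations from -0.022 to 0.011 over 5 treatment pairs and from -0.033 to 0.0094 over 5 protein pairs), and the numbers were not taken as pairs. With so few peaks per gene in EtOH, such low correlations cannot exclude pairing, and the calls depend on this choice. Leaving out 1 library gave 4 to 5 called genes. The other settings gave 5 to 7, and the canonical-transcript window, added after seeing the data, 5.

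Confident sites at the 9 genes, in the order S100A8 EtOH, S100A8 TAM, S100A9 EtOH and S100A9 TAM, were 0, 15, 2 and 22. They were 8, 28, 12 and 43 with every deposited peak and 4, 31, 4 and 47 when 1 replicate sufficed. With calls in every replicate they were 7, 0 and 8 for the last 3 groups. With equal numbers of top peaks they were 1, 1 and 0 for these groups, with the gene body only 5, 0 and 9. For S100A9, q-values of 1e-10 or below gave 0 in EtOH and 13 in TAM, and the nearest start site gave 0 in EtOH. Leaving out 1 library gave 8 to 11 for S100A8 in TAM, 0 to 1 for S100A9 in EtOH and 9 to 15 for S100A9 in TAM, the lowest without replicate 3. No such value exists for S100A8 in EtOH, which would have 1 library.

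All differences that changed sign were values that had not passed a test, with the exception of SNAI1 with equal numbers of top peaks (-0.15 on the log2 scale). The TAM minus EtOH difference at CDH2 became -0.083 with the block, without S100A8 TAM replicate 3 and without S100A9 TAM replicate 1, and -0.17 without S100A8 EtOH replicate 2, within a range over left-out libraries of -0.17 to 0.33. In peaks per 10000, SNAI2 became -0.72 and VIM 0.29 at q-values of 1e-10 or below; TWIST1 -0.15, ZEB1 -0.45, ZEB2 -0.23, CDH2 0.29 and FN1 -0.080 with every deposited peak; and SNAI1 -0.45 and VIM 1.35 with equal numbers of top peaks. Leaving out 1 library changed this sign for CDH2 (range -1.01 to 0.14), SNAI1 (-0.37 to 0.98, also -0.31), SNAI2 (-0.35 to 0.80) and VIM (-1.28 to 0.11). The S100A9 minus S100A8 log2 difference changed sign for SNAI1 (-0.054), SNAI2 (-0.030), CDH1 (-0.081) and VIM (-0.25) at q-values of 1e-10 or below, for CDH1 (-0.061) and CDH2 (0.32) with every deposited peak, for SNAI1 (-0.014), CDH1 (-0.17) and VIM (-0.42) with equal numbers, for VIM with the gene body (-0.18) and the nearest start site (-0.083), and for SNAI1 with the block (-0.025). Leaving out 1 library changed it for SNAI1 (range -0.19 to 0.31), SNAI2 (-0.069 to 0.43) and TWIST1 (-0.097 to 0.17). The causes of these changes were not tested.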
